A study of Mus musculus with 12 samples.

Results

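The Rab GTPases are the largest family of small GTP-binding proteins that direct membrane traffic, and 58 of them were followed here in mouse B cells as the cells divided in vivo and gained the plasma cell marker CD138. Members were taken by name: every gene of the deposited count table whose symbol starts with Rab followed by a digit. This gave 69 of 21761 genes, of which 58 encode GTPases, 9 encode partner proteins that carry a Rab name (Rab3gap1, Rab3gap2, Rab3ip, Rab3il1 and Rab11fip1 to Rab11fip5) and 2 are noncoding or antisense genes (Rab10os and Rab11fip4os1). After a filter on low counts, 55 members could be tested, namely 45 GTPases, the 9 partner proteins and Rab10os. The 13 GTPases that were not tested had at most 18 counts in any library. They were Rab15, Rab17, Rab27b, Rab33a, Rab34, Rab38, Rab3b, Rab3c, Rab40b, Rab42, Rab44, Rab4a and Rab9b. Rab40b and Rab9b had 0 counts in each of the 12 libraries, which allows up to 3 counts per library by counting error alone.

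Splenic B cells (B220+ CD43-) carrying a dye that is diluted at each division were moved into uMT hosts, which lack mature B cells of their own, and the hosts then received the bacterial endotoxin LPS. On day 3 the transferred cells were sorted from the spleen into 6 groups: Div0 (0 divisions), Div1 (1 division), Div3 (3 divisions), Div5 (5 divisions), Div8neg (at least 8 divisions, lacking the plasma cell surface protein CD138) and Div8pos (at least 8 divisions, bearing CD138). All 12 libraries share the LPS treatment and the uMT host, and no group is of untreated B cells. Each group has 2 libraries, 1 from each of hosts 196 and 197, labelled as female, 8 weeks of age and strain B6.SJL-Ptprca Pepcb/BoyJ, whereas the design text names C57/BL6J donors. Host 196 and host 197 gave cells to every group, so values speak for these 2 hosts, and n = 2 for every group.

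Libraries held 11541406 to 14961666 counts in named genes. The ERCC spike-ins, a known amount of synthetic RNA added to 40000 sorted cells, had 113723 to 683173 counts. The cells matched their labels by marker genes. The 6 measured B cell genes summed to 939 to 971 CPM (counts scaled to a common library size) in Div8pos and 5880 to 6044 CPM in Div8neg. The 6 measured plasma cell genes summed to 5085 to 5163 CPM in Div8pos and 644 to 770 CPM in Div8neg. Lists of other cell types were lower in Div8pos than in Div8neg in 6 of 7 cases by summed range. The macrophage, monocyte and dendritic cell list, of which all 7 measured genes were detected, summed to 24.7 to 28.6 CPM in Div8pos and 194 to 211 CPM in Div8neg, mostly from Flt3 (19.8 and 137 CPM). The T cell list summed to 2.16 to 2.73 CPM in Div8pos, with Cd3g at 0, and 15.0 to 15.1 CPM in Div8neg. Of the mast cell and basophil list, Cpa3 and Fcer1a were at 0 in every group. Mcpt8 was seen in Div1 alone (mean 0.0336 CPM), and Kit in every group (means of 0.379 to 3.22 CPM). The part of such cells in the values below was not tested.

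A Rab protein is a switch: bound to GTP it sits on a membrane and recruits effectors such as tethers and motors, and bound to GDP it is carried back through the cytosol by GDI. Exchange factors turn it on, GTPase-activating proteins turn it off, and a lipid tail added by Rab geranylgeranyl transferase anchors it. Each Rab marks a compartment, so that Rab1, Rab2 and Rab6 act between the endoplasmic reticulum (ER) and the Golgi, Rab5 and Rab4 on early endosomes, Rab7 and Rab9 on late endosomes, Rab11 on recycling endosomes, and Rab3, Rab8 and Rab27 in exocytosis. B cells take up antigen through endosomes and plasma cells secrete large amounts of antibody through the ER and Golgi.

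The 2 questions asked of each member were its share of the cell's mRNA and its number of mRNAs per cell. The first was measured as CPM with TMM scaling and tested with edgeR, and a gene was called at an adjusted p under 0.05. The second came from the authors' spike-in based mRNAs per cell, which grew with division but not clearly from Div1 to Div3. All genes together summed to 152012 to 174042 mRNAs per cell in Div8pos, 96920 to 103647 in Div8neg and 27409 to 33577 in Div0. Scaling to the spike-ins therefore moved the median log2 fold change of all genes to 0.60 for Div8pos over Div8neg, 1.68 for Div8neg over Div0, 0.74 for Div1 over Div0, 0.53 for Div5 over Div3 and 0.49 for Div8neg over Div5. For Div8pos over Div0 this median was 2.23, and for Div3 over Div1 it was -0.08. Where mRNA per cell grew, a gene that fell as a share of mRNA could thus hold or rise in copies per cell. Each direction below is given on both scales where they part.

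The 58 GTPases together rose in copies per cell with division, and their share of all mRNAs was lower in Div8pos. The rise was not steady, with mean sums of 142 mRNAs per cell in Div1 and 137 in Div3. Their summed level was 428 and 383 mRNAs per cell in hosts 196 and 197 of Div8pos, 269 and 288 in Div8neg, and 77.4 and 94.3 in Div0. The sums of the 3 groups did not overlap, and the Div8pos sum was 1.46 ± 0.185 times that of Div8neg within hosts (SD, n = 2), with 2 against 2 libraries allowing no exact p below 0.333. As a share of all mRNAs per cell the GTPases made up 0.282% in Div0, 0.277% in Div1, 0.282% in Div3, 0.280% in Div5, 0.278% in Div8neg and 0.249% in Div8pos. In host 196 the share was 0.246% in Div8pos and 0.278% in Div8neg, and in host 197 it was 0.252% and 0.278%.

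Within this sum the routes moved apart. The 12 ER and Golgi GTPases made up 0.0772% of mRNAs in Div8pos, 0.0684% in Div8neg and 0.0637% in Div0. The 11 early endosome GTPases made up 0.0645% in Div8pos, 0.0851% in Div8neg and 0.102% in Div0. In Div8pos the ER and Golgi sum stood above the early endosome sum in both hosts, and in the 5 other groups it stood below it in both. As a percent of gene counts, with no correction for length, the ER and Golgi sum was already above in Div8neg (0.0697% against 0.0627% in host 196 and 0.0712% against 0.0625% in host 197). In copies per cell both sums were higher in Div8pos, at 125 ± 8.2 against 68.5 ± 3.91 mRNAs per cell in Div8neg for ER and Golgi and 105 ± 10.2 against 85.3 ± 4.04 for early endosomes (SD, n = 2). The rise of the ER and Golgi sum rested largely on Rab1 and Rab2a and not on the route as a whole. Rab1 had a mean of 32.7 mRNAs per cell in Div8pos and 10.8 in Div8neg, and Rab2a 26.7 and 7.47. The recycling endosome GTPases (7 genes) made up 0.0316% in Div8pos and 0.0393% in Div8neg, the exocytosis GTPases (13 genes) 0.0405% and 0.0440%, and the late endosome and lysosome GTPases (9 genes) 0.0294% and 0.0341%.

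**Figure D1:**
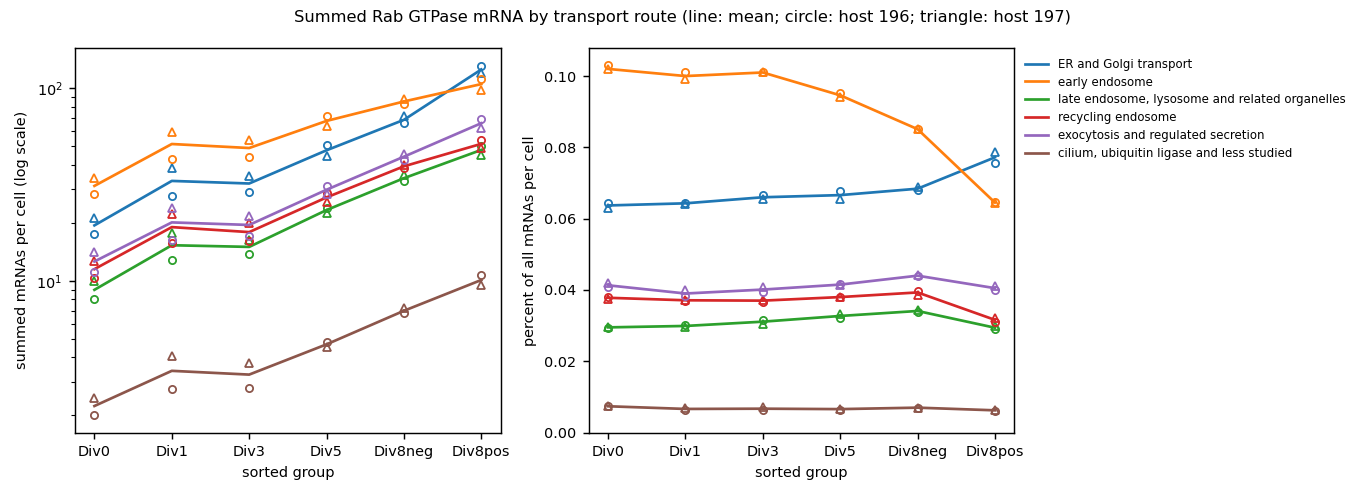
Summed mRNA of the Rab GTPases by transport route in the 6 groups, as mRNAs per cell on a log axis (left) and as percent of all mRNAs per cell (right). Lines join group means of 2 hosts and symbols show each host. The ER and Golgi sum passes the early endosome sum in Div8pos alone on this length-corrected scale, at 0.0772% and 0.0645% of mRNAs. Its rise in Div8pos rests largely on Rab1 and Rab2a.

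Div8pos and Div8neg cells had both divided at least 8 times, so their comparison asks what goes with CD138, the plasma cell marker, at the same division class. Of 45 tested GTPases, 12 were higher and 19 lower in Div8pos by edgeR, that is 26.7% and 42.2%, against 36.6% and 35.4% of all 12026 genes tested. Over all 55 tested members 37 were called (67.3%), against 72% of all genes, so the share called was near the background. Besides the GTPases these were 5 partner proteins and Rab10os, which is antisense to Rab10 (24.0 and 25.5 CPM in Div8pos and 20.9 and 20.8 CPM in Div8neg), and since counting by strand is not stated its reads cannot be told from those of Rab10. The Rab10os call was kept in 1 of 4 leave-outs of a library (adjusted p up to 0.133) and was lost with DESeq2 and with 2 groups alone. The median log2 fold change of the GTPases was -0.07, beside 0.01 for all genes. With spike-in scaling, which called 51.8% of all genes higher and 14.6% lower, all 16 members called higher passed as higher. Of the 21 called lower, 8 passed as lower and 5 changed sign without passing. Per cell, by limma on the deposited values, 22 GTPases were higher and 7 lower in Div8pos, against 52.1% and 16.3% of all genes. Over all members that test called 34, against 68.4% of genes, and 22 when the Div8neg library of host 196 was left out.

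**Figure D2:**
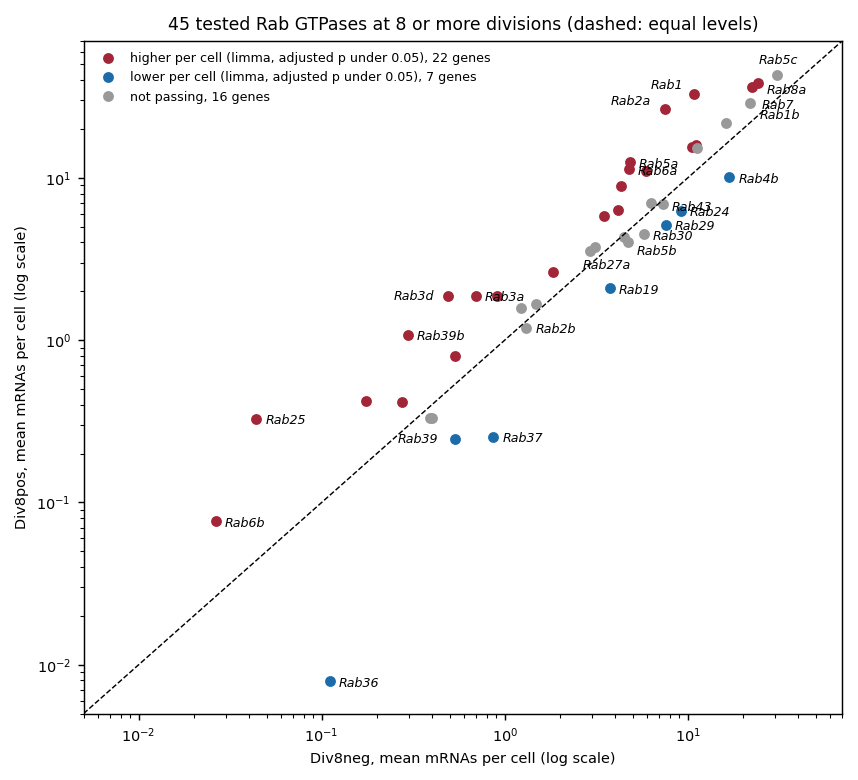
Mean mRNAs per cell of the 45 tested GTPases in Div8pos (vertical, log axis) against Div8neg (horizontal, log axis), with colour for the limma test and a dashed line at equal levels. Rab1 and Rab2a lie well above the line among the abundant genes, and Rab4b, Rab24, Rab29 and Rab19 lie below it.

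The genes of the early secretory route parted into those that rose and those that fell. Of 11 tested ER and Golgi GTPases, 5 were higher and 5 lower in Div8pos than in Div8neg by edgeR, with a median log2 fold change of 0.50. Of all genes tested, 36.6% were higher and 35.4% lower, with a median of 0.01. Rab1, the GTPase that admits ER-derived vesicles to the Golgi, had 269 and 292 CPM in Div8pos (hosts 196 and 197) and 132 and 139 CPM in Div8neg. It also had 69.5 and 68.1 CPM in Div0, 73.0 and 67.9 in Div1, 75.3 and 71.4 in Div3, and 86.4 and 94.6 in Div5. Its level was flat to Div3, was higher in each later group without overlap, and stood 2.07-fold higher in Div8pos than in Div8neg (log2 1.05 ± 0.06 SE, edgeR adjusted p = 3.35e-10). Per cell, Rab1 had 33.3 and 32.1 mRNAs in Div8pos, 10.1 and 11.5 in Div8neg, and 1.58 and 1.85 in Div0.

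Rab2a, which acts with Golgi tethers on the return and onward traffic of ER to Golgi carriers, had 145 and 146 CPM in Div8pos and 60.3 and 58.6 CPM in Div8neg. In the 4 groups of fewer divisions it lay between 46.6 and 60.6 CPM, so Div8pos alone stood apart. The rise over Div8neg was 2.45-fold (log2 1.29 ± 0.06 SE, edgeR adjusted p = 7.79e-12), and per cell Rab2a had 28.1 and 25.3 mRNAs in Div8pos and 7.26 and 7.67 in Div8neg. Rab6a, of traffic within and from the Golgi, had 96.0 and 103 CPM in Div8pos and 59.0 and 63.0 CPM in Div8neg (log2 0.71 ± 0.06 SE, edgeR adjusted p = 4.88e-08). Rab18, a GTPase of the ER and lipid droplets, had 54.1 and 52.9 CPM in Div8pos and 37.8 and 37.4 CPM in Div8neg (log2 0.51, edgeR adjusted p = 4.51e-05). Rab33b, a Golgi GTPase also tied to autophagy, had 15.3 and 19.4 CPM in Div8pos and 12.3 and 12.2 CPM in Div8neg (log2 0.50, edgeR adjusted p = 0.00124). It stood higher still in Div0, at 22.8 and 22.7 CPM.

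Other Golgi GTPases were lower as a share of mRNA. Rab30 had 22.1 and 25.9 CPM in Div8pos and 49.0 and 40.6 CPM in Div8neg, which was 1.88-fold lower (log2 -0.91, edgeR adjusted p = 8.41e-06), and it did not pass with spike-in scaling (log2 -0.32, adjusted p = 0.21). Rab43 had 94.0 and 103 CPM in Div8pos and 149 and 156 CPM in Div8neg (log2 -0.63, edgeR adjusted p = 1.69e-07), with a spike-in scaled log2 of -0.05 that did not pass. Rab19 had 8.32 and 6.17 CPM in Div8pos and 19.8 and 18.6 CPM in Div8neg, 2.64-fold lower (log2 -1.40, edgeR adjusted p = 1.15e-07), and it passed as lower with spike-in scaling too (log2 -0.81, adjusted p = 0.00215). Rab2b, the close relative of Rab2a, had 8.00 and 9.95 CPM in Div8pos and 14.0 and 14.9 CPM in Div8neg (log2 -0.69, edgeR adjusted p = 0.000126), and did not pass with spike-in scaling (log2 -0.11, adjusted p = 0.697).

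**Figure D3:**
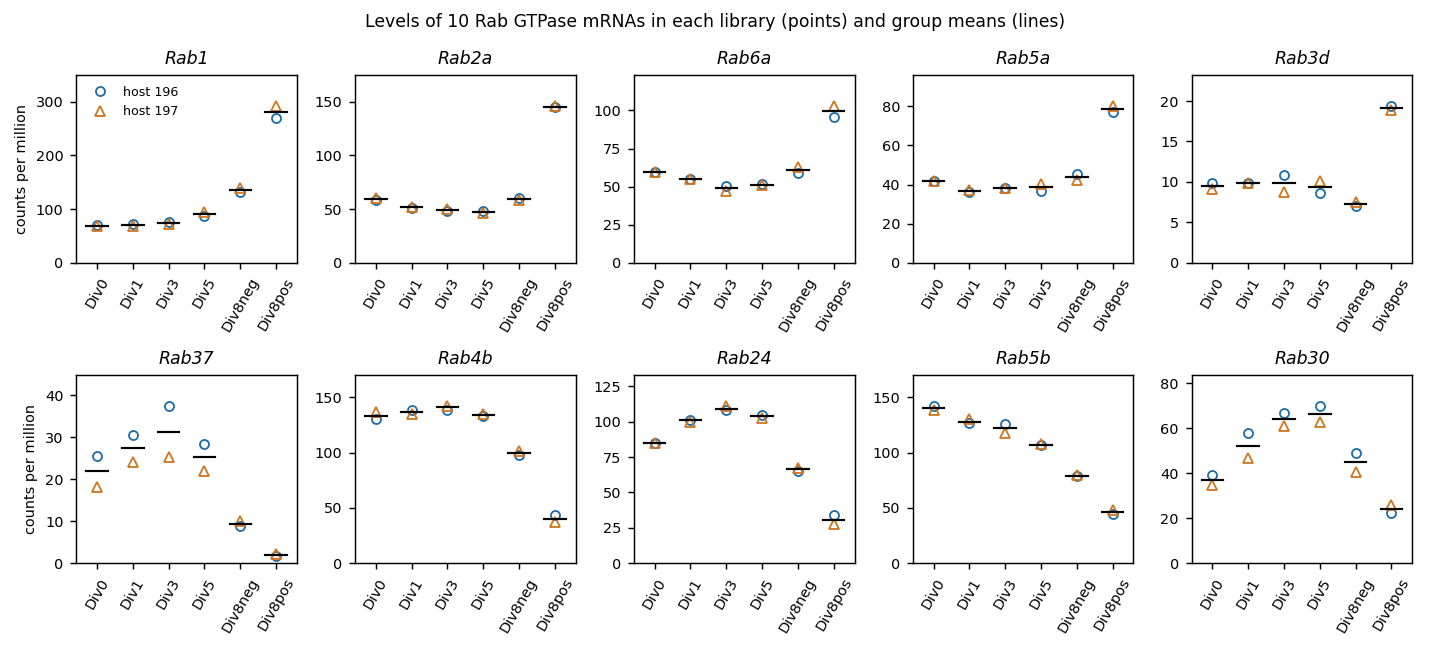
CPM of 10 Rab GTPase mRNAs in each library across the 6 groups, with circles for host 196, triangles for host 197 and lines for group means. Rab1, Rab2a, Rab6a, Rab5a and Rab3d (top) are highest in Div8pos, and Rab37, Rab4b, Rab24, Rab5b and Rab30 (bottom) are lowest there, of which Rab5b and Rab30 did not pass as lower per cell.

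Promoter sequences are shown for 3 of the GTPases that rose in Div8pos, to set the letters of co-moving genes side by side. These 3 were picked by no set rule, and Rab2a had no promoter among those given. The sequences are the 250 bases before the annotated start in RefSeq, on GRCm38.p6, 5′ to 3′ on the gene's strand. Rab1 lies at chr11:20201162-20201411 (plus strand), Rab6a at chr7:100607336-100607585 (plus strand) and Rab5a at chr17:53478984-53479233 (plus strand). Capitals mark TGACGT or its reverse complement, the core of the CRE read by CREB and ATF family factors.
Rab1: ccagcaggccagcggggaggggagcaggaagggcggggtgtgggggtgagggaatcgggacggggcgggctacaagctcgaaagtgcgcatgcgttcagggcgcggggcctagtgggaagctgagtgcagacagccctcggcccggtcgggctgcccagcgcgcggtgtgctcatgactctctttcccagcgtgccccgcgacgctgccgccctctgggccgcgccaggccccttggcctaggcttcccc
Rab6a: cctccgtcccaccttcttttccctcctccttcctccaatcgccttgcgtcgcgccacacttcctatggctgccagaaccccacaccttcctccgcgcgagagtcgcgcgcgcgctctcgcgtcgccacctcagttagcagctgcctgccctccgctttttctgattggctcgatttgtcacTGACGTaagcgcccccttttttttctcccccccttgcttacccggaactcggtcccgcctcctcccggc
Rab5a: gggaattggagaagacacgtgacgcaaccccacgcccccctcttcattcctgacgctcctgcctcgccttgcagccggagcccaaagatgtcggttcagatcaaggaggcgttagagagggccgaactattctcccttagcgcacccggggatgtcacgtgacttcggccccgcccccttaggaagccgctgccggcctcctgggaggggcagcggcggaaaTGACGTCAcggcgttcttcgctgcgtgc

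Promoter windows running to 50 bases past the start were given for 56 of the 69 members and for 27025 genes in all, and 6 motifs were searched in them on both strands, chosen after results of these data were known. In Rab6a the TGACGT began at position -69 from the start, and in Rab5a overlapping copies on the 2 strands began at -28 and -26. Rab1 had none in this window. The CRE core was held by 4 of the 10 GTPases called higher in Div8pos that have a promoter (Rab3a, Rab5a, Rab6a and Rab25), by 2 of 16 called lower, by 1 of 13 not passing and by 8.37% of all genes. Of these, Rab25 was near the floor, with 56 counts over all libraries. It had 0.88 and 0.969 CPM in Div8pos and 0.209 and 0.153 CPM in Div8neg, and its call was lost with DESeq2. The UPRE core GACGTGG, whose first 5 letters can overlap the CRE core, was held by 1, 2 and 0 of the same sets (2.73% of all genes). The E-box CACGTG was held by 1, 2 and 3 (8.09%), and the ETS motif GAGGAAGT by 0, 2 and 0 (3.69%). The ERSE, the ER stress element (0.137%), and the NF-kB motif (0.174%) matched no GTPase of these sets. These counts describe letters and were not tested.

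Within the closest subfamilies the shares of the genes shifted, and between Rab1 and Rab1b the leading gene changed. Of the mRNAs of Rab1 and Rab1b together, Rab1 made up 51.1% and 54.8% in Div8pos (hosts 196 and 197), 32.5% and 33.4% in Div8neg, and 22.9% and 22.3% in Div0. Rab1b, which shares the ER to Golgi role, had 146 and 136 CPM in Div8pos and 155 and 157 CPM in Div8neg, with a log2 fold change of -0.14 (edgeR adjusted p = 0.0339) that turned to 0.44 with spike-in scaling and did not pass there. That call was also lost with RLE factors, with no filter, with DESeq2 and without either Div8neg library or the Div8pos library of host 197. Rab2a made up 96.2% and 95.3% of the Rab2a and Rab2b mRNAs in Div8pos, 85.6% and 84.4% in Div8neg, and 76.2% and 79.0% in Div0. Rab11a made up 38.4% of Rab11a and Rab11b in Div8pos, 41.7% in Div8neg and 29.9% in Div0. Reads that fit both of a pair may have been split between them, since how such reads were counted is not stated.

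The 3 Rab5 genes, all GTPases of early endosome fusion, took different courses. Rab5a had 77.0 and 80.2 CPM in Div8pos and 45.6 and 42.5 CPM in Div8neg (log2 0.83 ± 0.07 SE, edgeR adjusted p = 1.56e-08). Rab5b had 44.1 and 48.3 CPM in Div8pos and 78.9 and 79.5 CPM in Div8neg (log2 -0.78 ± 0.07 SE, edgeR adjusted p = 2.27e-08), and did not pass with spike-in scaling (log2 -0.20, adjusted p = 0.443), though its 4.05 and 3.94 mRNAs per cell in Div8pos did not overlap the 4.49 and 4.92 in Div8neg. Rab5b also stood at 142 and 139 CPM in Div0 and was lower in every later group without overlap of its 2 values with Div0. Rab5c had the most mRNAs per cell of all the GTPases in every group, at 45.3 and 40.9 in Div8pos, 30.0 and 31.6 in Div8neg, and 8.58 and 10.2 in Div0. Its share of mRNA did not pass between Div8pos and Div8neg (log2 -0.07, edgeR adjusted p = 0.236), and with spike-in scaling it was 0.52 higher (adjusted p = 0.0369), though limma on the deposited values did not pass (adjusted p = 0.0534). Of the 3 genes' mRNAs together, Rab5a made up 21.1% in Div8pos and 11.9% in Div8neg, Rab5b 6.72% and 11.7%, and Rab5c 72.2% and 76.4%.

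**Figure D4:**
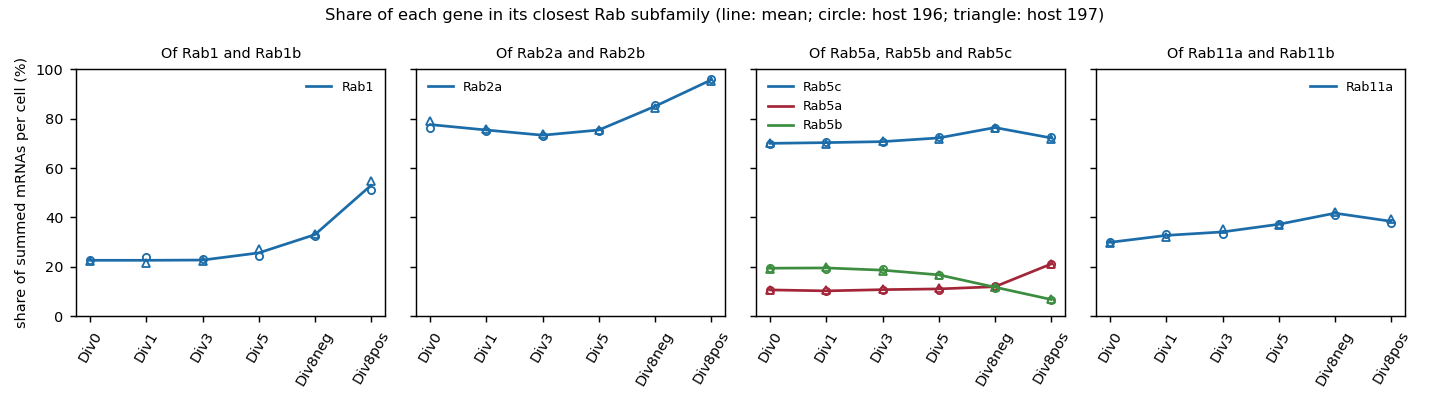
Percent of the summed mRNAs per cell held by each gene of 4 Rab subfamilies across the 6 groups, with lines for means, circles for host 196 and triangles for host 197. The Rab1 share is 53.0% in Div8pos and 33.0% in Div8neg, and in Div8pos Rab5a holds 21.1% and Rab5b 6.72% of the Rab5 mRNAs.

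Of 9 tested early endosome GTPases 2 were higher and 4 lower in Div8pos, with a median log2 fold change of -0.20. Among all genes 36.6% were higher and 35.4% lower, with a median of 0.01. Besides Rab5a, Rab22a, of endosomal sorting, was higher, with 55.9 and 54.6 CPM in Div8pos and 42.9 and 44.9 CPM in Div8neg (log2 0.33, edgeR adjusted p = 0.000574). Rab4b, of rapid recycling from early endosomes, had 43.1 and 37.5 CPM in Div8pos and 97.8 and 101 CPM in Div8neg, 2.46-fold lower (log2 -1.30 ± 0.07 SE, edgeR adjusted p = 7.33e-11). It passed as lower per cell as well, with 11.4 and 8.81 mRNAs in Div8pos and 16.0 and 17.9 in Div8neg (limma adjusted p = 0.00255). By mRNAs per cell Rab4b ranked 14 among the GTPases in Div8pos and 2 in Div0, while Rab1 ranked 4 in Div8pos and 15 in Div0. Rab24, tied to autophagy, had 33.8 and 27.9 CPM in Div8pos and 65.4 and 67.3 CPM in Div8neg, 2.14-fold lower (log2 -1.10, edgeR adjusted p = 2.35e-09), and passed as lower per cell (limma adjusted p = 0.0239). Rab31, a relative of Rab5 that also acts at the Golgi, had 4 and 3.26 CPM in Div8pos and 5.79 and 6.65 CPM in Div8neg (log2 -0.77, edgeR adjusted p = 0.00359) and did not pass with spike-in scaling.

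Of 5 tested late endosome and lysosome GTPases, 1 was higher and 3 lower in Div8pos, with a median log2 fold change of -0.81. Of 6 tested recycling endosome GTPases, 1 was higher and 2 lower, with a median of -0.06. The shares of all genes were 36.6% higher and 35.4% lower, with a median of 0.01. Rab7, which leads late endosomes to lysosomes, had 113 and 113 CPM in Div8pos and 102 and 102 CPM in Div8neg (log2 0.14, edgeR adjusted p = 0.0248). That call was lost when either Div8neg library or the Div8pos library of host 197 was left out, with an adjusted p of at most 0.0852. Rab29, a GTPase of the trans-Golgi and lysosomes that binds the kinase Lrrk2, had 15.6 and 16.7 CPM in Div8pos and 34.9 and 34.7 CPM in Div8neg, 2.15-fold lower (log2 -1.11, edgeR adjusted p = 7.21e-08), and passed as lower per cell (limma adjusted p = 0.023). Lrrk2 itself had 17.1 ± 0.615 CPM in Div8pos and 100 ± 7.61 CPM in Div8neg (SD, n = 2). Rab11a, the main GTPase of recycling endosomes, had 26.6 and 27.0 CPM in Div8pos and 40.8 and 40.2 CPM in Div8neg (log2 -0.60, edgeR adjusted p = 2.66e-06), with a spike-in scaled log2 of -0.01 that did not pass.

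Rab36, a Golgi and late endosome GTPase named here after its values were seen, had 2 counts in Div8pos and 47 in Div8neg over both libraries. Their ratio was 0.0459 with a 95% counting interval of 0.00540 to 0.175. It was detected in every group at a low level, up to 2.68 CPM in Div5. Its call as higher in Div5 than in Div3 (log2 0.90, edgeR adjusted p = 0.042) was lost whichever of the 4 libraries was left out.

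Of 9 tested GTPases of exocytosis 2 were higher (Rab3d and Rab3a) and 3 lower in Div8pos, against 36.6% and 35.4% of all genes. Rab3b and Rab3c were left out by the low-count filter. Rab3d, found on the secretory granules of gland cells, had 19.4 and 18.9 CPM in Div8pos and 7.05 and 7.57 CPM in Div8neg, 2.62-fold higher (log2 1.39 ± 0.14 SE, edgeR adjusted p = 1.75e-07). Rab3a, known from synaptic vesicles, had 8.72 and 9.16 CPM in Div8pos and 4.68 and 4.97 CPM in Div8neg (log2 0.89, edgeR adjusted p = 0.000115). In Div0 it had 9.09 and 10.2 CPM, which overlaps its range in Div8pos. Rab37, known from mast cell granules, had 1.68 and 2.11 CPM in Div8pos and 8.86 and 9.94 CPM in Div8neg, 4.95-fold lower (log2 -2.31 ± 0.35 SE, edgeR adjusted p = 2.48e-05). It was lower per cell too, with 0.240 and 0.268 mRNAs in Div8pos and 0.783 and 0.954 in Div8neg. The mast cell genes Cpa3 and Fcer1a were at 0 in every library. Kit, of the same list, had mean levels of 0.379 CPM in Div8neg, 1.66 CPM in Div8pos and 3.22 CPM in Div3. The part of such cells in the Rab37 values was not tested.

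Rab27a, of regulated secretion in cytotoxic and pigment cells, had 30.6 and 30.8 CPM in Div8pos and 38.2 and 35.6 CPM in Div8neg. Its log2 fold change of -0.27 (edgeR adjusted p = 0.00633) turned to 0.32 with spike-in scaling, which did not pass, and the call was lost without the Div8neg library of host 196 (adjusted p = 0.0808) and by DESeq2. Rab8a, of transport to the plasma membrane, had 203 and 205 CPM in Div8pos and 189 and 187 CPM in Div8neg and did not pass as a share of mRNA (edgeR adjusted p = 0.116), while per cell it was 1.58-fold higher (limma adjusted p = 0.00852). In that per-cell test the median log2 fold change of all genes was itself 0.49. Rab39b, a GTPase with a role in neurons, had 8.72 and 10.7 CPM in Div8pos and 3.63 and 4.05 CPM in Div8neg, 2.52-fold higher (log2 1.33, edgeR adjusted p = 1.62e-05). Its relative Rab39 went the other way, with 1.36 and 2.55 CPM in Div8pos and 6.14 and 6.19 CPM in Div8neg, 3.18-fold lower (log2 -1.67, edgeR adjusted p = 1.67e-05) and lower per cell (limma adjusted p = 4.78e-05).

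The partner proteins were tested in the same fit. Of 9, 3 were higher and 2 lower in Div8pos than in Div8neg, against 36.6% and 35.4% of all genes. Rab3ip, also called Rabin8 and an exchange factor for Rab8, had 33.8 and 28.8 CPM in Div8pos and 17.5 and 19.0 CPM in Div8neg (log2 0.78, edgeR adjusted p = 1.08e-05). In Div0 it had 29.2 and 29.5 CPM, within its range in Div8pos. The 5 Rab11fip genes encode Rab11 effectors. Rab11fip1 had 35.1 and 31.1 CPM in Div8pos and 19.9 and 20.6 CPM in Div8neg (log2 0.71, edgeR adjusted p = 7.82e-06). Rab11fip2 had 3.92 and 3.88 CPM in Div8pos and 9.91 and 7.88 CPM in Div8neg (log2 -1.19, edgeR adjusted p = 3.77e-05). Rab11fip3 had 6.56 and 6.78 CPM in Div8pos and 13.6 and 13.9 CPM in Div8neg (log2 -1.04, edgeR adjusted p = 8.85e-07). Rab11fip1 was thus higher and the other two lower, and Rab11fip3 did not pass with spike-in scaling (log2 -0.46, adjusted p = 0.0939). Rab3gap2, of the complex that acts on Rab3 and Rab18, had 127 and 132 CPM in Div8pos and 99.4 and 102 CPM in Div8neg (log2 0.36, edgeR adjusted p = 1.92e-05).

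Div8neg and Div0 differ by at least 8 divisions and also in their marker genes, with B cell genes at 5880 to 6044 CPM in Div8neg and 8081 to 8185 CPM in Div0. Between Div8neg and Div0, 17 GTPases were higher and 16 lower by edgeR (37.8% and 35.6% of 45), against 35.3% and 35.7% of all genes tested. Of all members, 40 of 55 were called, against 71% of genes. This split depended on the scale: of the 23 members called lower as a share of mRNA, 21 were higher in sign with spike-in scaling and 20 of these passed as higher, under a scaling that called 89.2% of all genes higher and 1.57% lower. Per cell, 42 GTPases were higher and 1 lower in Div8neg, against 88.4% and 1.65% of all genes, and 51 members were called against 90% of genes. Only Rab6b, a mainly neuronal relative of Rab6a, passed as lower on both scales, with 0.349 and 0.612 CPM in Div8neg and 7.15 and 9.07 CPM in Div0, 16.7-fold lower (log2 -4.06 ± 0.37 SE, edgeR adjusted p = 7.47e-08).

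Rab1 led the GTPases that rose in Div8neg over Div0 among those of at least 5 CPM, at 1.97-fold (log2 0.98 ± 0.07 SE, edgeR adjusted p = 3.66e-09). Rab23, of ciliary signalling, had 14.2 and 14.5 CPM in Div8neg and 10.7 and 7.95 CPM in Div0 (log2 0.61, edgeR adjusted p = 0.00325). Rab29 had 34.9 and 34.7 CPM in Div8neg and 23.1 and 25.8 CPM in Div0 (log2 0.51, edgeR adjusted p = 0.000164), against its lower level in Div8pos given above. Rab11a (log2 0.39), Rab35 (log2 0.38) and Rab8b (log2 0.33), of recycling and plasma membrane traffic, also rose. Rab2a and Rab6a did not pass as a share of mRNA (log2 0.00 and 0.04), and per cell they were 3.12-fold and 3.15-fold higher in Div8neg. The median log2 fold change of all genes per cell was itself 1.41 in this comparison. Rab43 did not pass (log2 0.12, edgeR adjusted p = 0.0919) and did with the host as a block (adjusted p = 0.0361).

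The GTPases that fell as a share of mRNA in Div8neg against Div0 were mostly higher in copies per cell. Rab37 had 8.86 and 9.94 CPM in Div8neg and 25.5 and 18.2 CPM in Div0 (log2 -1.23, edgeR adjusted p = 0.000113), and with spike-in scaling it was higher (log2 0.49, adjusted p = 0.0472), which limma on the deposited values did not call (adjusted p = 0.0631). Rab5b fell by 0.83 on the log2 scale and was higher with spike-in scaling (log2 0.86). The same reversal held for Rab3a (log2 -0.99 and 0.69), Rab31 (log2 -0.97 and 0.74) and Rab33b (log2 -0.89 and 0.79). Among partner proteins 6 were lower and 0 higher, against 35.7% and 35.3% of genes, and the median log2 of the 9 was -0.54. Rab11fip5 had 0.558 and 0.306 CPM in Div8neg and 2.76 and 2.05 CPM in Div0 (log2 -2.44, edgeR adjusted p = 0.000184) and did not pass with spike-in scaling (log2 -0.76). Rab11fip2 (log2 -1.29), Rab11fip3 (log2 -0.86) and Rab3ip (log2 -0.69) followed, and with spike-in scaling they stood at 0.40, 0.82 and 1.00, of which Rab11fip2 did not pass. The comparisons of Div8pos with Div8neg and of Div8neg with Div0 share the Div8neg libraries, so their values are set side by side and not related to each other.

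**Figure D5:**
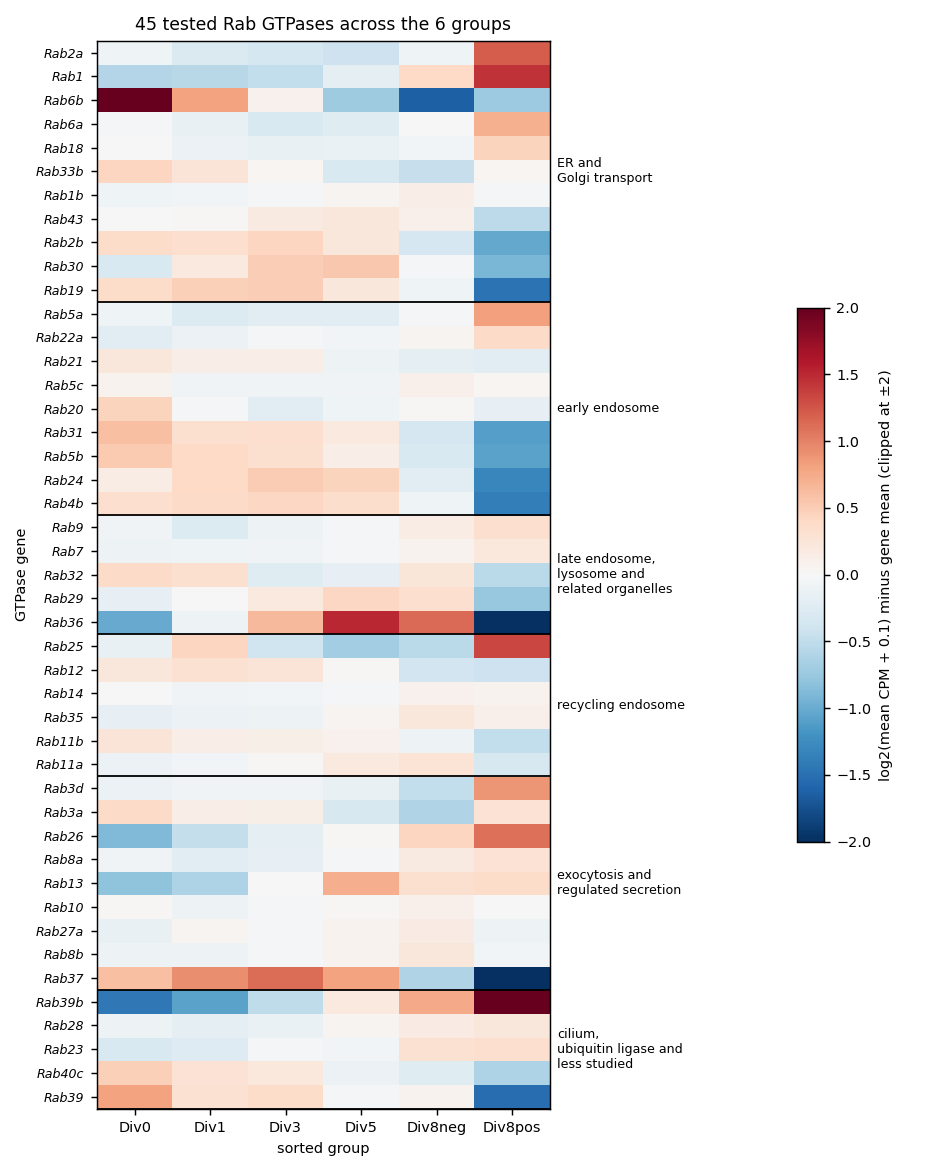
Colour map of the 45 tested GTPases (rows, by route) over the 6 groups (columns), as log2 of mean CPM plus 0.1 minus the gene's mean over groups, clipped at ±2. Rab2a, Rab1, Rab6a and Rab18 are highest in Div8pos, whereas Rab30, Rab24, Rab4b and Rab37 are highest at 3 or 5 divisions, all as shares of mRNA.

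By single steps, few members were called early and more late, as was so for all genes. At each step the share of members called by edgeR was below that of all genes. In Div1 against Div0, 2 GTPases were higher, 1 was lower and 1 partner protein was lower, in all 4 of 55 members (7.27%) against 9.35% of all genes, with 5.44% of genes higher and 3.91% lower. Spike-in scaling called 44 members, against 81.7% of genes. Rab30 had 57.7 and 46.8 CPM in Div1 and 39.2 and 34.6 CPM in Div0 (log2 0.49, edgeR adjusted p = 0.0137). Rab24 had 101 and 100 CPM in Div1 and 85.3 and 84.9 CPM in Div0 (log2 0.24, edgeR adjusted p = 0.0307). Rab6b had 2.97 and 3.16 CPM in Div1 and 7.15 and 9.07 CPM in Div0 (log2 -1.39, edgeR adjusted p = 0.00282). Leaving out host 196 from Div1, or host 197 from Div0, left 1 of the 4 calls, and leaving out host 197 from Div1 left 2. The Rab24 call was lost without any 1 of the 4 libraries, and the Rab30 call without Div1 host 196 or Div0 host 197. The Rab6b call was kept each time. With spike-in scaling Rab6b did not pass (log2 -0.66, adjusted p = 0.0567), and by limma on the deposited values it did (adjusted p = 0.0449). Per cell, 36 GTPases were higher and 1 lower in Div1, against 77% and 0.133% of all genes, and 43 members were called against 77.1% of genes. That count was 3 when host 196 of Div0 was dropped and 4 when host 197 of Div1 was dropped.

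In Div3 against Div1 no member was called by edgeR, against 3.42% of all genes, while 9 members had an unadjusted p under 0.05, and DESeq2 also called 0. With the host as a block, edgeR called Rab30 as higher (log2 0.30, adjusted p = 0.0263), as 1 member against 6.28% of all genes. In Div5 against Div3, 2 GTPases were higher and 5 lower, and 4 partner proteins were lower, in all 11 of 55 members (20%) against 26.6% of all genes, with 14.2% of genes higher and 12.4% lower. Spike-in scaling called 22 members, against 45.7% of genes. Rab1 had 86.4 and 94.6 CPM in Div5 and 75.3 and 71.4 CPM in Div3 (log2 0.30, edgeR adjusted p = 0.00459). Rab3a (log2 -0.44), Rab33b (log2 -0.35) and Rab40c (log2 -0.34) fell as a share of mRNA, and with spike-in scaling their log2 values turned to 0.09, 0.19 and 0.20 and did not pass. The Rab3a call was kept in 1 of 4 leave-outs of a library (adjusted p up to 0.303) and was lost with RLE factors, with no filter, with DESeq2 and with 2 groups alone. The count of 11 rested on single libraries: it was 0 without Div5 host 197, 1 without Div3 host 196, 5 without Div5 host 196 and 7 without Div3 host 197. The Rab33b and Rab40c calls were lost without any 1 of the 4 libraries, and the Rab1 call without Div5 host 197 only.

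In Div8neg against Div5, 8 GTPases were higher and 10 lower, and 22 of 55 members were called in all (40%), against 53.4% of all genes, with 26.9% of genes higher and 26.6% lower. Rab1 (log2 0.58, edgeR adjusted p = 3.38e-06), Rab2a (log2 0.33, edgeR adjusted p = 0.00035) and Rab6a (log2 0.25, edgeR adjusted p = 0.00509) rose, the Rab6a call being lost without Div8neg host 197 (adjusted p = 0.0659). They belong to the ER and Golgi route, of which 3 of 11 tested GTPases were higher and 3 lower, with a median log2 of -0.13. Rab37 fell (log2 -1.43), also with spike-in scaling (log2 -0.93, adjusted p = 0.000657). Rab24 (log2 -0.65) and Rab2b (log2 -0.57) fell as shares of mRNA and did not pass with spike-in scaling. The count of 22 was 13 without the Div8neg library of host 196 and 14 without the Div5 library of host 196. In Div8pos against Div0, 17 GTPases were higher and 19 lower, with 43 of 55 members called. Of all genes 82.4% were called, 40.2% higher and 42.2% lower. Per cell 39 GTPases were higher and 2 lower, against 82.5% and 6.65% of genes, with 48 members called against 89.1% of genes. Of the 24 members lower as a share of mRNA, 20 had a positive sign with spike-in scaling, which put the median log2 of all genes at 2.23. Over that span Rab39b was 12.6-fold, Rab1 4.08-fold and Rab2a 2.45-fold higher as shares of mRNA. Per cell Rab1 was 18.1-fold and Rab2a 11.0-fold higher, beside a median log2 of 1.84 for all genes. Rab37 was 11.6-fold lower and also lower per cell (limma adjusted p = 1.23e-05), Rab39 was 5.30-fold lower with a spike-in scaled log2 of -0.15 that did not pass, and Rab6b was 8.28-fold lower, which passed per cell by limma (adjusted p = 0.00564) and not with spike-in scaling.

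The mean share of mRNA was highest in Div8pos for 15 of the 45 GTPases and in Div8neg for 8. It was highest in Div5 for 5, in Div3 for 5, in Div1 for 1 and in Div0 for 11. These counts rank means of 2 libraries without a test, and the same count over all genes was not made. Some rest on small differences, such as Rab12 with 23.0 CPM in Div1 and 22.3 CPM in Div3. Rab14, of recycling and Golgi traffic, varied least, with its highest group mean 1.11 times its lowest, followed by Rab5c (1.12) and Rab10 (1.15).

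The proteins that load, switch and read the Rabs were also counted for Div8pos against Div8neg, from lists of pathway genes, against 36.6% of all genes higher and 35.4% lower. Of 8 tested genes of prenylation and recycling, 4 were higher and 3 lower. Rabac1, which takes Rabs off GDI, was 3.11-fold higher (edgeR adjusted p = 5.66e-11), and Rabggta and Rabggtb, the subunits of the geranylgeranyl transferase, were 1.97-fold and 1.45-fold higher. Rabac1 and Rabggta stood about as high in Div0, at 66.9 and 58.1 CPM, beside 68.2 and 60.7 CPM in Div8pos. Chml, a Rab escort protein, had 11.1 ± 1.64 CPM in Div8pos and 22.4 ± 0.778 CPM in Div8neg (SD, n = 2), 2.03-fold lower, and did not pass with spike-in scaling (log2 -0.44). Gdi2 was 1.39-fold lower with a log2 of -0.48 that turned to 0.11 with spike-in scaling.

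Of 46 tested exchange factor genes 12 were higher and 22 lower, against 36.6% and 35.4% of all genes. Their median log2 was -0.24, beside 0.01 for all genes. Dennd5b, whose protein acts on Rab39 in biochemical work, had 245 ± 12.3 CPM in Div8pos and 36.6 ± 3.92 CPM in Div8neg, 6.69-fold higher (edgeR adjusted p = 3.76e-12). Trappc6b and Trappc13, subunits of TRAPP complexes, the exchange factors of Rab1 and Rab11, were 1.63-fold and 1.59-fold higher. The other TRAPP subunits called went both ways, with Trappc2l, Trappc8 and Trappc10 higher. Trappc5 (log2 -0.64), Trappc1 (log2 -0.59), Trappc9 (log2 -0.36) and Trappc12 (log2 -0.24) were lower as shares of mRNA and did not pass with spike-in scaling. Dennd1c, linked to Rab35, had 9.14 ± 2.52 CPM in Div8pos and 123 ± 9.26 CPM in Div8neg, 13.6-fold lower. Rin3, of Rab5 and Rab31, was 5.12-fold and Dennd4b, linked to Rab10, 4.21-fold lower, and all 3 were lower with spike-in scaling.

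Of 36 tested GTPase-activating protein genes 9 were higher and 18 lower, against 36.6% and 35.4% of all genes. Their median log2 was -0.21, beside 0.01 for all genes. Tbc1d8 (7-fold), Tbc1d16 (6.03-fold) and Evi5 (3.40-fold) were higher, and Tbc1d30 (12.2-fold, from 0.128 CPM in Div8pos and 1.65 CPM in Div8neg), Tbc1d10c (4.38-fold) and Tbc1d9 (4.32-fold) were lower, on both scales. Of 43 tested effector genes 9 were higher and 22 lower, against the same shares of all genes, with a median log2 of -0.20. Gorasp2, a Golgi stacking protein that binds Rab2, had 457 ± 2.27 CPM in Div8pos and 153 ± 13.5 CPM in Div8neg, 3.00-fold higher. Uso1, the tether p115 recruited by Rab1, was 2.32-fold higher, and Bicd1, a dynein adaptor of Rab6, 2.51-fold. Unc13d, the Rab27 effector of granule docking, had 22.7 ± 2.36 CPM in Div8pos and 137 ± 6.73 CPM in Div8neg, 6-fold lower, Lrrk2 was 5.84-fold lower, and Mical1, a Rab1 and Rab35 effector that acts on actin, 5.83-fold lower, on both scales.

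Genes of the COPII coat and ER exit, the step just before Rab1, were 20 of 22 higher and 1 lower, against 36.6% and 35.4% of all genes. Their median log2 was 1.10, beside 0.01 for all genes. Sec24d had 411 ± 3.16 CPM in Div8pos and 35.7 ± 13.5 CPM in Div8neg, 11.6-fold higher (edgeR adjusted p = 3.16e-11). Sec24a was 6.65-fold and Lman1, a cargo receptor, 5.51-fold higher. Sec24b, the single gene of the list that was lower (log2 -0.13, edgeR adjusted p = 0.0305), had a spike-in scaled log2 of 0.45 and did not pass there. In these bulk samples a smaller share of cells with an mRNA and less of it per cell cannot be told apart.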

How the data were processed

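RNA-seq of 12 libraries (6 groups, hosts 196 and 197) was analysed from the deposited tables. The deposited counts are whole reads per gene over exons, per the file headers, and stranded counting is not stated. The FPKM values were used to check the deposited signal of mRNAs per cell, which equals the authors' FPKM times 1 spike-in factor per library (0.1387 to 0.769). Libraries were made from 40000 sorted cells with a stranded mRNA kit, 11 PCR cycles and 50 bp paired reads, per the labels' protocols. Picard, R 3.2.2 and mm9 are named in the submitters' processing notes, with the aligner and the counter not given in the sources used here. Copies made by PCR cannot be told from separate molecules. The 90 rows without a symbol (0.0498 to 0.0943% of counts) were left out.

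The count test was edgeR 4.0.16, run in R 4.3.3 (TMM, filterByExpr, quasi-likelihood test over 12 libraries and group means, 7 comparisons, Benjamini-Hochberg over 12026 genes). Values per cell were tested with limma 3.58.1 with trend on log2(mRNAs per cell + 0.1) for 4 comparisons. A fold change of a low gene is understated on that scale. CPM use TMM factors. Both tests were run on simulated data without growth in mRNA per cell or spike-in error, so the per-cell setting was not checked. Alternatives were RLE factors, no filter, DESeq2 1.42.0, spike-in scaling, pseudocounts of 0.01 and 1, 2 groups alone, a host block and each library left out. A lone library left in a group is assumed to vary like the other groups. Host numbers pair the libraries, since the same host gave cells to every group. Deviations from group means correlated between groups within a host at 0.00664 to 0.358 (15 group pairs, median 0.156).

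Members and gene lists were chosen with earlier results of these data known. Always described were Rab1, Rab1b, Rab2a, Rab5c, Rab6a, Rab7, Rab8a, Rab11a, Rab27a, Rab3d, Rab30 and Rab43. To these were added called GTPases that reached 5 CPM in 1 group and moved alike in both hosts, taking the 6 largest fold changes up and down for Div8pos over Div8neg and Div8neg over Div0, 4 for Div1 over Div0 and 3 elsewhere, and 3 per direction for partner proteins and for each pathway list. Other members are named where a count or a subfamily needs them. Marker lists of 9 cell types were summed as CPM. Promoters came from RefSeq on GRCm38.p6 by Entrez gene number, since the files hold no coordinates. Of the pathway lists, 1 gene that the rule names is not reported here. Zfyve20 and Sec12 were on the lists and not in the table under those names.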

Additional observations from a re-analysis of the deposited data

How the results depend on the processing

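The counts of members called for Div8pos over Div8neg, Div8neg over Div0 and Div8pos over Div0 stayed within 1.5 times under every edgeR, DESeq2 and leave-one-out alternative run. For Div1 over Div0 the count of 4 was 2 by DESeq2, 44 with spike-in scaling and 1 to 3 leaving out a library. For Div5 over Div3 the count of 11 was 3 by DESeq2, 22 with spike-in scaling and 0 to 7 leaving out a library. For Div8neg over Div5 the count of 22 was 13 to 21 leaving out a library. For Div3 over Div1 the count of 0 was 1 with no filter and 1 with the replicate block, which pairs the hosts and moved no other count by over 1.5 times. Of the 70 single-gene values below, it changed the call of Rab43 in Div8neg over Div0, and it added Rab30 in Div3 over Div1. Per cell, the count of 43 for Div1 over Div0 was 3 to 45 and the count of 34 for Div8pos over Div8neg was 22 to 28 leaving out a library. Taken as a share of gene counts, the ratio of summed Rab GTPase levels was 0.973 for Div1 over Div0, 1.01 for Div8neg over Div0, 0.942 for Div8pos over Div8neg and 0.948 for Div8pos over Div0.

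Of 70 single-gene values, 62 kept their side of the threshold by DESeq2 and 68 with RLE factors. Spike-in scaling turned the log2 sign of 15. For Div5 over Div3 it gave Rab3a 0.09, Rab33b 0.19 and Rab40c 0.20. For Div8neg over Div0 it gave Rab37 0.49, Rab3a 0.69, Rab31 0.74, Rab33b 0.79, Rab5b 0.86, Rab3d 1.32, Rab11fip2 0.40, Rab11fip3 0.82 and Rab3ip 1.00. For Div8pos over Div8neg it gave Rab1b 0.44, Rab5c 0.52 and Rab27a 0.32. This scaling adds the growth in mRNA per cell to every gene. In Div8neg over Div0 neither Rab2a nor Rab6a passed, and Rab2a was -0.00 with no filter and -0.03 to 0.03 leaving out a library, and Rab6a was -0.01 to 0.09. The low-count filter kept 13 GTPases of at most 18 counts in any library out of the test.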
